A study of Sus scrofa with 60 samples.

Results

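Liver gene expression was compared between neonatal pigs that had their bile ducts ligated and received parenteral nutrition (PN) with a mixed lipid emulsion (MLE-BDL) and pigs that had the same ligation and were fed enterally (ENT-BDL). The 18 pigs were chosen by the diet and surgery codes of their sample titles, which put 8 in MLE-BDL and 10 in ENT-BDL, out of 60 samples in the series. The other 42 samples were from ligated pigs given PN with a soy lipid emulsion (SLE-BDL) and sham-operated pigs on each of the 3 diets, and they entered here for the shared estimate of spread and for 2 side comparisons; 2 SLE-sham samples carry the same pig code, so the labels name 59 pigs. Livers were collected on day 14, and poly-A RNA was counted per gene.

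All pigs were of a mixed Landrace and Hampshire background, of both sexes, were delivered by cesarean section shortly before term, carried a jugular catheter, and received PN at the start before the ENT pigs were moved to full feeding through an orogastric tube. Bile duct ligation (BDL) closed the cystic and common bile ducts, and so is a model of a complete obstruction of bile flow. The diets were matched for calories. MLE was SMOFlipid, a blend of soy, medium-chain triglyceride, olive and fish oils. The ENT pigs received a milk replacer formula. Diet in this comparison therefore combines the route of feeding, the formula and the lipid, and these cannot be told apart.

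The liver meets nutrients and hormones from the gut through the portal vein, and it adjusts glucose output, bile acid synthesis, drug metabolism and iron control to feeding. Hepcidin, the hormone that hepatocytes release when iron stores are high, blocks the iron exporter ferroportin, and its gene is driven by bone morphogenetic proteins from the sinusoidal endothelium. CYP7A1 starts the classical route from cholesterol to bile acids and is repressed by bile acids returning from the gut and by those retained in the liver. Insulin lowers the output of glucose and of the binding protein IGFBP1, and shortage or imbalance of amino acids acts through the transcription factor ATF4.

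Total counts in the 18 livers lay between 15193337 and 21374161. Summed counts scaled to library size (CPM) of 14 hepatocyte markers were 116000 to 136000 in MLE-BDL and 104000 to 183000 in ENT-BDL, and 8 exocrine pancreas markers summed to at most 5.49 CPM, with PNLIP and PRSS2 at 0 in all 18 livers. One ENT-BDL library, replicate 1, and one ENT-sham library, replicate 2, were far closer to each other than any other pair (chi-square per degree of freedom 2.03 over 12225 genes, against 19.2 for the next of 1770 pairs), although their labels give different surgeries. The library labelled ENT-sham replicate 2 had a summed level of cholangiocyte markers of 778 CPM, against 143 to 275 CPM in the other ENT-sham libraries and 779 CPM in ENT-BDL replicate 1, and values without these libraries are given beside the list counts and calls of named genes that they change. The 3-digit number in the titles, whose meaning is not stated, was shared by 5 MLE-BDL and 3 ENT-BDL pigs over 3 values, while the other 10 pigs had values held by 1 diet alone. Diet and that number were thus largely aligned, and values with the number as a block over all samples are given beside the named genes whose call they change and the list counts they move; counts in the pigs of shared numbers are given for part of the lists.

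Of 16210 genes tested, 515 were called, with a Benjamini-Hochberg adjusted p below 0.05 and a fold change above 2 in edgeR's quasi-likelihood test. These are 3.18% of the genes tested, 198 higher in MLE-BDL (1.22%) and 317 lower (1.96%). Without the fold limit 2722 genes (16.8%) passed, 1382 higher (8.53%) and 1340 lower (8.27%), and the median log2 fold change of all genes was 0.01. The CPM of the 8 MLE-BDL and 10 ENT-BDL pigs did not overlap for 359 genes (2.21%), of which 137 were among the 515. These shares over all genes are the background for the list counts below. Leaving out any 1 of the 18 pigs gave between 464 and 548 called genes, leaving out both near-identical libraries gave 548, and in the 8 pigs of shared numbers alone, with the number as a block, 284 passed. Of 65 called genes named by the rule for this text, all kept their direction in every alternative run, but 26 of 64 no longer passed in those 8 pigs.

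Hepcidin showed the largest fall among the genes that the rule named. HAMP (chromosome 6, 44785863 to 44787303, Sscrofa11.1) was counted at 34.1 to 127 CPM in ENT-BDL pigs (median 73.1) and at 0.052 to 1.51 CPM in MLE-BDL pigs (median 0.904). The 2 groups were far apart, and the fitted level was 94.1-fold lower in MLE-BDL (log2 fold change −6.56, SE 0.55, adjusted p = 8.7e-13). BMP6, the endothelial ligand that drives the hepcidin gene, had a median of 4.06 CPM (2.72 to 8.94) against 12.8 CPM (6.23 to 22.4) and fell by 1.58 on the log2 scale (SE 0.22, adjusted p = 4.7e-07), with some overlap. ATOH8, a transcription factor that acts on the same gene, fell by 1.16 (SE 0.20, adjusted p = 2.7e-05), without overlap. TFRC, the transferrin receptor through which cells take up iron, went the other way: 90.6 to 153 CPM in MLE-BDL against 22 to 45.1 CPM in ENT-BDL, a log2 fold change of 1.79 (SE 0.20, adjusted p = 1.8e-09).

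No further gene of iron handling was called. Of 30 tested, 1 was called higher and 3 lower, 4 and 7 passed without the fold limit, and the list's median was −0.06. Over all genes tested 1.22% were called higher and 1.96% lower. Without the fold limit 8.53% were higher and 8.27% lower. The ferroportin gene SLC40A1 (406 to 690 against 408 to 759 CPM), the iron sensor TFR2 (591 to 686 against 562 to 803 CPM) and the BMP target genes ID1 and SMAD7 did not pass, with log2 fold changes of −0.24, −0.21, 0.00 and −0.03 and standard errors of 0.14, 0.10, 0.20 and 0.12. The ferritin heavy chain FTH1 was higher by 0.54 (SE 0.10, adjusted p = 3.6e-05).

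**Figure D1:**
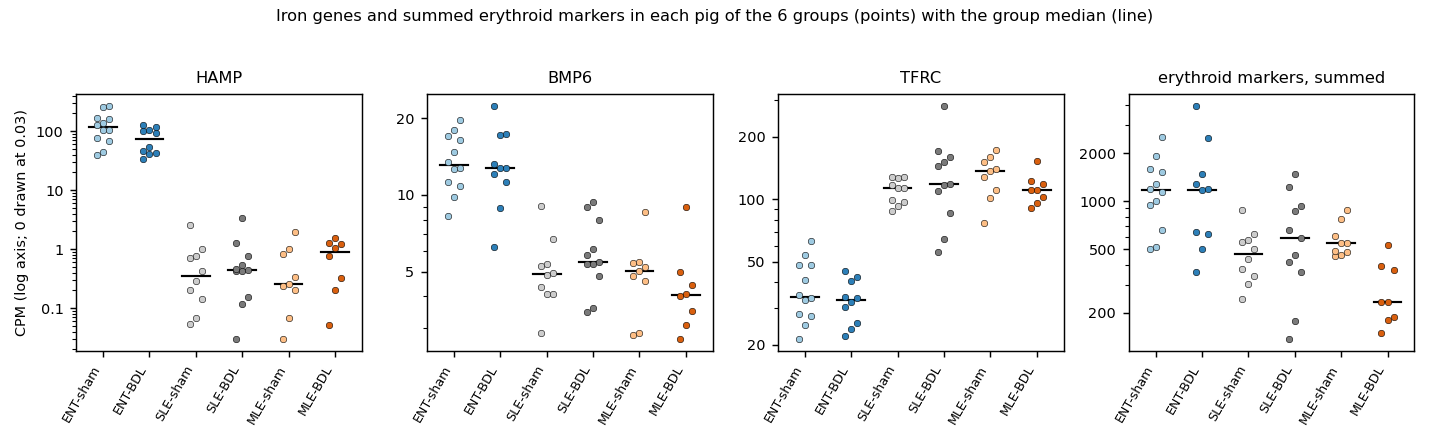
CPM on a log axis of HAMP, BMP6, TFRC and the sum of 14 erythroid markers, TFRC left out, in each pig of the 6 groups of diet and surgery; points are pigs and bars are group medians, and a count of 0 is drawn at 0.03. HAMP in MLE-BDL lies between 0.052 and 1.51 CPM and in ENT-BDL between 34.1 and 127 CPM, and the erythroid sum is 150 to 535 CPM against 361 to 3970 CPM.

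Red cell precursor genes were lower in MLE-BDL too. The summed CPM of the erythroid markers other than TFRC had a median of 234 (150 to 535) in MLE-BDL and 1180 (361 to 3970) in ENT-BDL, and 8 of the 10 ENT-BDL pigs lay above the highest MLE-BDL pig. Of 14 erythroid markers tested, 6 were called lower, among them HBB, HBM, ALAS2, AHSP and HEMGN, and TFRC higher, with a median of −1.92. HBB, the adult beta globin, had a median of 201 CPM (133 to 477) against a median of 1090 and a highest value of 3650 CPM, a fall of 2.33 (SE 0.39, adjusted p = 1.4e-05). The number called lower was 4 with the title number as a block, with a median of −1.14, 2 in the pigs of shared numbers, with a median of −0.84, and 9 without the near-identical libraries. In whole liver, fewer cells of a type and less RNA per cell cannot be told apart, and the part of erythroid cells in the other results was not tested. HAMP and TFRC kept their calls with the title number as a block and in the pigs of shared numbers.

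**Figure D2:**
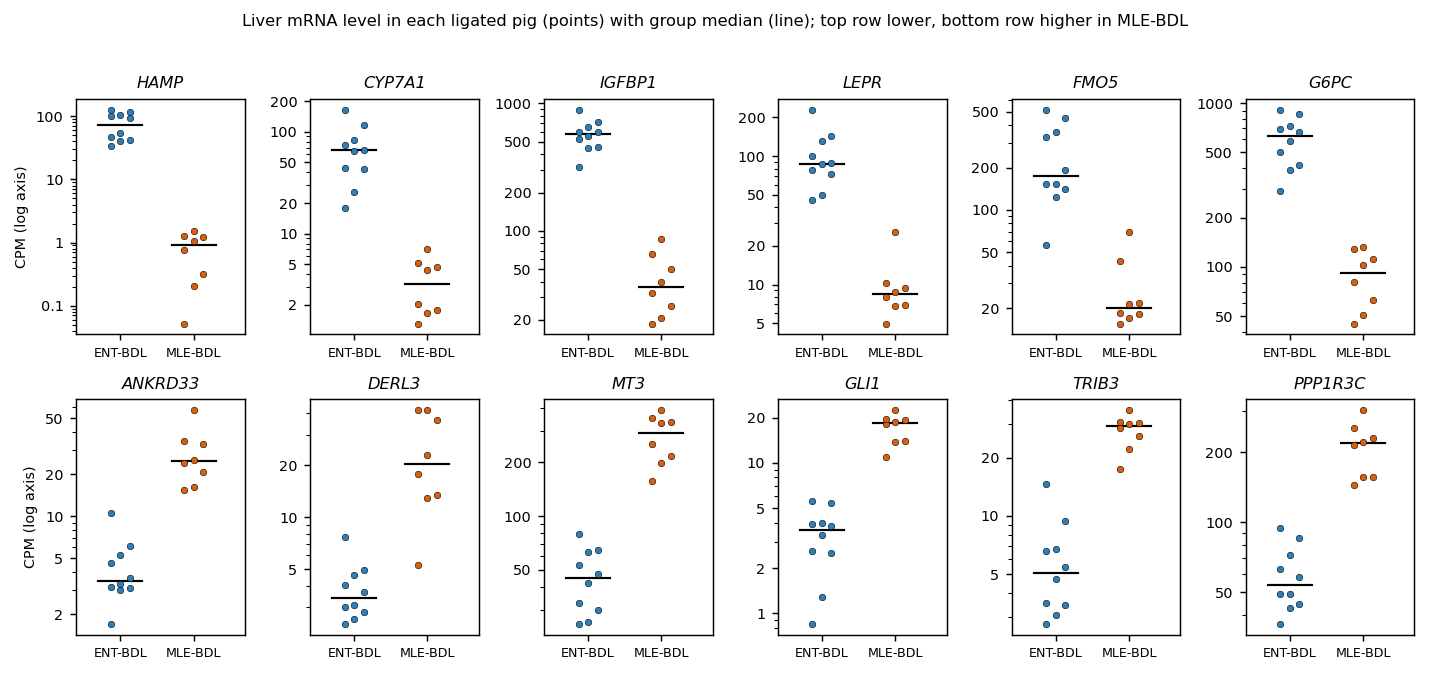
CPM on a log axis in each of the 8 MLE-BDL and 10 ENT-BDL pigs for 6 genes that fell (HAMP, CYP7A1, IGFBP1, LEPR, FMO5, G6PC) and 6 that rose (ANKRD33, DERL3, MT3, GLI1, TRIB3, PPP1R3C); points are pigs and bars are medians. The groups do not overlap in 10 of the 12 panels, the exceptions being FMO5 and DERL3. The panels were picked among genes with large changes, and 2.21% of all genes tested had no overlap.

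Among genes of glucose handling, IGFBP1, G6PC and GYS2 were lower in MLE-BDL. IGFBP1 (chromosome 18, 50018487 to 50022799) had 316 to 894 CPM in ENT-BDL and 18.7 to 85.9 CPM in MLE-BDL, a fall of 3.76 (SE 0.54, adjusted p = 8.0e-07). G6PC, the phosphatase that releases free glucose, had medians of 626 and 91.9 CPM (290 to 911 against 45 to 133) and fell by 2.76 (SE 0.33, adjusted p = 8.6e-09). Neither gene's groups overlapped. Of 16 genes of glucose handling tested, 3 were called lower, IGFBP1, G6PC and GYS2, and none higher, and the median was −0.51. Without the fold limit 9 passed, all lower, and 6 had no overlap. Over all genes tested 1.96% were called lower, 8.27% were lower without the fold limit and 2.21% had no overlap. With the title number as a block 4 were called lower, with a median of −0.45. PCK1, the other committed enzyme of glucose synthesis, did not pass (131 to 512 against 166 to 1050 CPM, log2 fold change −0.57, SE 0.37).

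GYS2, the liver glycogen synthase, fell by 1.94 (SE 0.23, adjusted p = 7.2e-09; 34.9 to 87.9 against 142 to 355 CPM). PPP1R3B and PPP1R3C, which bring the phosphatase that activates glycogen synthase to glycogen, rose by 1.84 (SE 0.31, adjusted p = 1.9e-05) and by 1.82 (SE 0.21, adjusted p = 3.6e-09). PPP1R3C had 145 to 303 CPM in MLE-BDL and 36.5 to 94.6 CPM in ENT-BDL, and the groups did not overlap for any of the 3 genes. PDK4, a fasting-induced kinase that shuts off pyruvate dehydrogenase, fell by 2.16 (SE 0.25, adjusted p = 7.5e-09; 29.9 to 90.2 against 164 to 324 CPM).

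The leptin receptor gene LEPR, SOCS2 and IGFBP2 also fell. LEPR (chromosome 6, 146802297 to 146896152) was at 45.2 to 230 CPM in ENT-BDL and at 4.96 to 25.7 CPM in MLE-BDL, a fall of 3.34 (SE 0.34, adjusted p = 2.0e-10). Within MLE-BDL the highest pig stood apart from the next, at 10.2 CPM, and still lay below all ENT-BDL pigs. SOCS2, a growth hormone target that dampens its receptor, fell by 2.17 (SE 0.28, adjusted p = 4.9e-08), without overlap. IGFBP2, a carrier of insulin-like growth factors, fell by 1.46 (SE 0.25, adjusted p = 2.6e-05; 341 to 1260 against 1030 to 1990 CPM), while IGF1 itself (5.14 to 20.1 against 5.51 to 21.3 CPM) had a log2 fold change of −0.06 (SE 0.39). With the title number as a block IGF1 had −0.65, and in the pigs of shared numbers −0.46, called in neither. Of 16 genes of the growth hormone and IGF axis, 3 were called lower, IGFBP1 again among them, and none higher, and the median was −0.20.

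The transcript for the first step of classical bile acid synthesis was lower. CYP7A1 (chromosome 4, 74343101 to 74372628) had a median of 65.8 CPM (18 to 165) in ENT-BDL and of 3.23 CPM (1.31 to 7.08) in MLE-BDL, without overlap, a fall of 4.31 (SE 0.69, adjusted p = 7.7e-06). SLC27A5, the bile acid CoA ligase needed for conjugation, fell by 2.05 (SE 0.30, adjusted p = 1.4e-06; 38.4 to 93 against 123 to 491 CPM). CYP27A1, which opens the alternative route, was lower by less, with a log2 fold change of −0.72 (SE 0.13, adjusted p = 5.2e-05; 248 to 356 against 382 to 603 CPM). CYP8B1, which sets the share of cholic acid, was near the detection limit in both groups (at most 2.14 CPM). Its log2 fold change was 1.57, opposite to CYP7A1, and it did not pass. The value lay between 0.58 and 1.84 over the alternatives, and CYP8B1 was called higher in 3 of them. Of 14 genes tested, 2 were called lower and none higher, 7 passed without the fold limit, all lower, and the median was −0.35.

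None of the 10 genes tested that sense bile acids was called. The receptor gene NR1H4, which encodes FXR, had 63.9 to 86.8 against 75 to 101 CPM (log2 fold change −0.12, SE 0.07), and its target NR0B2, the repressor SHP, 17.8 to 27.4 against 11.3 to 34.3 CPM (0.46, SE 0.17, adjusted p = 0.050); neither passed. Among 17 transporters of bile acids and organic ions 1 was called, lower, with a median of −0.12, and 4 were called lower with the title number as a block, with a median of −0.19. The bile salt export pump ABCB11 was lower by 0.87 on the log2 scale, less than 2-fold (SE 0.18, adjusted p = 0.00047), at 327 to 393 CPM against 520 to 853 CPM, without overlap. The uptake carrier SLC10A1 was lower by 0.83 (SE 0.18, adjusted p = 0.00045), with overlap, and passed the fold limit with the block (−1.1). The basolateral exporter subunit SLC51B had 12.1 to 50.8 against 16.3 to 61 CPM, a log2 fold change of 0.00 (SE 0.34).

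Cytochrome P450 genes, which oxidize drugs, hormones and fatty acids, fell more often than they rose. Of 21 tested, 10 were called lower and 1 higher, where 1.96% and 1.22% of all genes were, and the median was −1.16. CYP2E1, the ethanol-inducible enzyme, had a median of 17.1 CPM (5.02 to 110) against 310 CPM (38.8 to 515) and fell by 3.41 (SE 0.64, adjusted p = 0.000104). CYP2C49 had 16.5 to 106 CPM against 126 to 822 CPM (−2.97, SE 0.51, adjusted p = 3.0e-05), without overlap, and CYP4F55 12 to 26 against 36.5 to 109 CPM (−1.81, SE 0.25, adjusted p = 4.2e-07). CYP1A2 fell by 1.72 (adjusted p = 0.0074) and CYP3A29 by 1.32 (adjusted p = 0.015), both with overlap. CYP2C42 rose by 1.46 (SE 0.30, adjusted p = 0.00034; 41.3 to 150 against 7.01 to 45.8 CPM), but with the title number as a block 11 P450 genes were called lower and none higher, with a median of −1.36. Pig CYP2C genes are close copies of each other, so their counts are uncertain, and CYP2C32 was no longer called with the title number as a block (−4.47, and −1.47 with it); CYP2A19 was no longer called without ENT-BDL replicate 10 (−2.97, and −1.8 without it). In the pigs of shared numbers 4 of the P450 genes were called lower.

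Further enzymes of detoxification were called lower. FMO5, a flavin monooxygenase, had medians of 20 and 173 CPM (15.5 to 69.3 against 56.2 to 516) and fell by 3.14 (SE 0.37, adjusted p = 7.2e-09). SULT2A1, the sulfotransferase of steroids and bile acids, had 13.1 to 46 CPM against 140 to 359 CPM, a fall of 2.87 (SE 0.38, adjusted p = 1.9e-07), without overlap. INMT, an amine methyltransferase, fell by 1.91 (SE 0.21, adjusted p = 2.2e-09), and AOX1, aldehyde oxidase, by 1.76 (SE 0.27, adjusted p = 3.6e-06). Counted over the lists, 4 of 17 phase II enzymes were called lower and none higher (median −0.24), and 4 of 19 alcohol and aldehyde dehydrogenases, monooxygenases and oxidases lower and 2 higher (median −0.21). In the pigs of shared numbers the first list had 2 called lower, and the second none lower and 1 higher; with the title number as a block the second had 4 lower and none higher, and without the near-identical libraries 4 lower and 1 higher. METTL7B, a methyltransferase-like gene of lipid droplets, was in neither list and fell by 3.60 (SE 0.63, adjusted p = 3.7e-05; 3.03 to 36.1 against 38.6 to 318 CPM). Some calls hung on single pigs or on the block. The fall of 1.22 for ADH4 was −0.8 without ENT-BDL replicate 10 and −1.22 to −1.16 without MLE-BDL replicates 3, 4 or 8, none of them called, and −0.75 with the title number as a block. SULT1E1 (−1.03) came to between −0.98 and −0.95 without ENT-BDL replicates 4 or 10 or MLE-BDL replicates 1 or 6, and ALDH1B1 (1.03) to between 0.97 and 1 without ENT-BDL replicates 1 or 5 or MLE-BDL replicate 1, just under the fold limit, and to 0.82 with the block.

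Of 8 tested genes of the receptors that sense foreign compounds and their partners, 1 was called lower and 1 higher (median −0.25). NR1I3, the constitutive androstane receptor CAR, had a median of 5.36 CPM (3.51 to 10.2) against 17.9 CPM (7.23 to 31.6) and fell by 1.52 (SE 0.27, adjusted p = 4.7e-05). NR1I2, the pregnane X receptor, was lower by 0.32 (SE 0.10, adjusted p = 0.020), less than 2-fold. ALAS1, the first enzyme of heme synthesis, was higher by 1.22 (SE 0.26, adjusted p = 0.00042; 99.9 to 247 against 49.1 to 80.9 CPM), without overlap, although the annotation describes that entry as a pseudogene. Among 29 genes of the NRF2 and glutathione list, only GSTA1 was called, lower by 1.48 (SE 0.37, adjusted p = 0.0034), and 2 were called lower with the block.

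**Figure D3:**
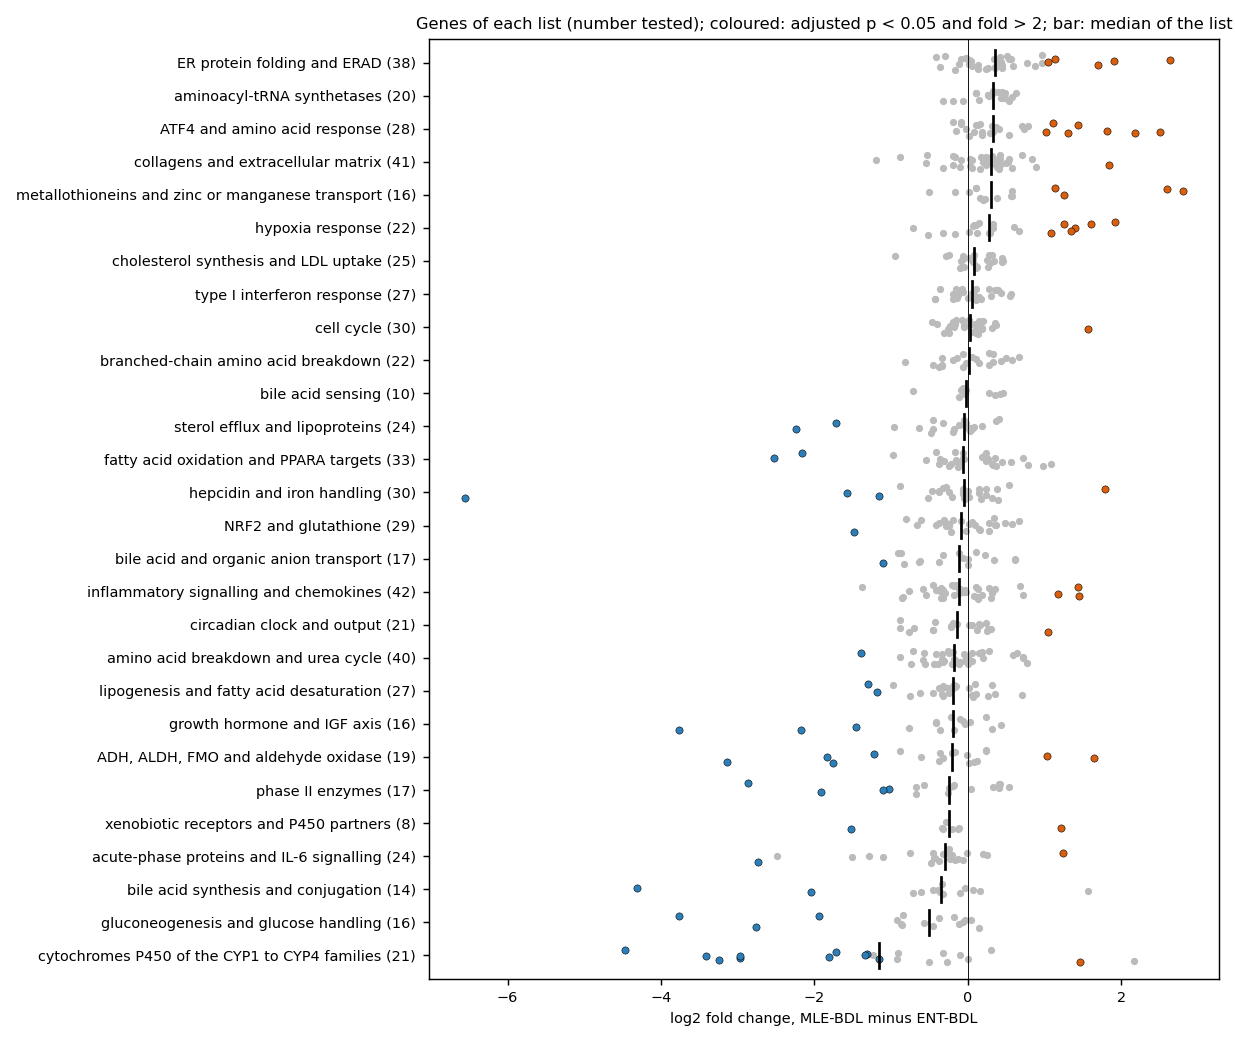
Log2 fold change of MLE-BDL over ENT-BDL for each tested gene of 28 gene lists; dots are genes, coloured where called, and vertical bars are list medians. The P450 list has its median at −1.16 and the glucose list at −0.51, and the ER folding, ATF4 and tRNA synthetase lists lie above 0, at 0.35, 0.32 and 0.33.

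Of the genes that fold proteins in the endoplasmic reticulum (ER), 5 of 38 were called higher. DERL3, which helps draw misfolded proteins out of the ER, had a median of 20.3 CPM (5.28 to 41.7) against 3.39 CPM (2.4 to 7.69), a rise of 2.63 (SE 0.40, adjusted p = 3.2e-06). SDF2L1 and CRELD2, both ER stress genes, rose by 1.91 (SE 0.31, adjusted p = 6.8e-06) and by 1.69 (SE 0.29, adjusted p = 2.7e-05), and HSPA5, the main ER chaperone, by 1.14 (SE 0.20, adjusted p = 4.0e-05; 715 to 2110 against 423 to 1190 CPM). For these 4 genes the lowest MLE-BDL values lay within the ENT-BDL range. Of the whole list, which includes ER-associated degradation, none was called lower, 18 and 2 passed without the fold limit, and the median was 0.35. Over all genes tested 1.22% were called higher, and 8.53% were higher and 8.27% lower without the fold limit. XBP1, a transcription factor of this response whose splicing was not measured, was at 154 to 213 against 166 to 275 CPM. With the title number as a block 6 of the list were called higher, and in the pigs of shared numbers 1.

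Of 28 genes of the ATF4 and amino acid response, 7 were called higher and none lower (median 0.32), and in the pigs of shared numbers 3 were called higher. In the fit of all pigs 1.22% of all genes tested were called higher. TRIB3, a pseudokinase that this factor induces, had 17.6 to 35.3 CPM against 2.76 to 14.6 CPM (2.18, SE 0.30, adjusted p = 4.6e-07). DDIT3, which encodes CHOP, had 13.4 to 24.3 CPM against 3.73 to 7.27 CPM (1.81, SE 0.21, adjusted p = 5.0e-09), and ASNS, asparagine synthetase, 55.1 to 95.9 CPM against 16.6 to 46 CPM (1.44, SE 0.19, adjusted p = 1.4e-07). The groups overlapped for none of the 3. ATF4 itself was higher by 0.53 (SE 0.09, adjusted p = 3.4e-05), while the serine synthesis enzyme PSAT1 (207 to 293 against 181 to 328 CPM) had a log2 fold change of 0.01 (SE 0.14) and FGF21, a hormone gene of the same program, of 0.73 (SE 0.29, adjusted p = 0.070). Of 20 cytosolic aminoacyl-tRNA synthetases none was called, but 12 were higher and 1 lower without the fold limit (median 0.33), where 8.53% and 8.27% of all genes were.

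The 3 metallothionein genes described here, whose products bind zinc and copper, rose. MT3 had 157 to 391 CPM in MLE-BDL and 24.9 to 78.9 CPM in ENT-BDL, a rise of 2.59 (SE 0.33, adjusted p = 3.6e-08). The entry MT1D, described in the annotation as metallothionein-1E, had 6380 to 9560 CPM against 2440 to 6100 CPM (1.14, SE 0.13, adjusted p = 5.0e-09), and MT4 0.953 to 5.8 against 0 to 0.694 CPM (2.81, SE 0.53, adjusted p = 9.4e-05). None of the 3 overlapped between groups, but metallothionein genes resemble each other and their counts are uncertain. The manganese exporter SLC30A10 (165 to 232 against 135 to 208 CPM) had a log2 fold change of 0.16 (SE 0.14). Of 16 genes of the list 4 were called higher, where 1.22% of all genes were, and none lower (median 0.30). The number called higher was 3 with the title number as a block, 3 without the near-identical libraries and 2 in the pigs of shared numbers.

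Several genes of the hypoxia list rose. SLC2A1, a glucose carrier, had 34.1 to 62.6 CPM against 12.1 to 30.9 CPM (1.25, SE 0.19, adjusted p = 1.8e-06), and PFKFB3, which speeds glycolysis, 43.5 to 82.3 CPM against 9.91 to 34.9 CPM (1.6, SE 0.35, adjusted p = 0.00064). Neither overlapped. Of 22 genes 6 were called higher and none lower, 10 and 3 passed without the fold limit, the median was 0.28, 5 were called without the near-identical libraries and 2 in the pigs of shared numbers. Over all genes 1.22% were called higher, and 8.53% were higher and 8.27% lower without the fold limit. VEGFA was higher by 0.29 (SE 0.10, adjusted p = 0.037). EPO, erythropoietin, was barely counted, at 0.107 to 1.06 CPM against 0 to 0.344 CPM, and its rise of 1.92 (SE 0.68, adjusted p = 0.0436) was lost without 13 of the 18 pigs, one at a time, with values of 1.74 to 1.96, and without the near-identical libraries (1.85, adjusted p = 0.0661).

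The remaining genes with the largest rises belonged to no list. ANKRD33, an ankyrin repeat gene, had a median of 24.7 CPM (15.5 to 57.4) against 3.46 CPM (1.7 to 10.6) and rose by 2.65 (SE 0.43, adjusted p = 8.4e-06). GLI1, the hedgehog-dependent transcription factor, had 10.9 to 22.4 CPM against 0.849 to 5.57 CPM, a rise of 2.35 (SE 0.31, adjusted p = 1.0e-07). ATP6V1B1, a subunit of the vacuolar proton pump, had 16.6 to 28.3 CPM against 5.03 to 9.83 CPM (1.88, SE 0.34, adjusted p = 4.9e-05). All 3 separated the groups without overlap.

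Fat metabolism showed isolated falls. APOA5, which promotes clearance of plasma triglyceride, had a median of 4.59 CPM (at most 10.3) against 27.1 CPM (at most 36.5) (−2.24, SE 0.38, adjusted p = 2.2e-05), and APOF, a lipid transfer inhibitor, 60.6 to 110 CPM against 187 to 346 CPM (−1.72, SE 0.18, adjusted p = 3.5e-10). SLC25A47, a liver mitochondrial carrier, fell by 2.53 (SE 0.32, adjusted p = 4.9e-08; 17.5 to 32.8 against 82.5 to 194 CPM). These 3 had no overlap. DGAT2, which completes triglyceride synthesis, fell by 1.19 (SE 0.23, adjusted p = 0.00012), a call lost with the title number as a block (−0.99), and TKFC, which phosphorylates a product of fructose breakdown, by 1.3 (SE 0.17, adjusted p = 8.2e-08). FASN, SCD, FADS1 and FADS2, which make and desaturate fatty acids, did not pass, with log2 fold changes of −0.15, 0.36, −0.20 and −0.19 and standard errors of 0.29, 0.23, 0.21 and 0.18.

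Over the lipid lists the called genes were all lower, where 1.96% of all genes tested were called lower. For lipogenesis 2 of 27 were lower and none higher (median −0.20), for fatty acid oxidation 2 of 33 were lower and none higher (median −0.06), for sterol efflux and lipoproteins 2 of 24 were lower and none higher (median −0.05), and for cholesterol synthesis none of 25 was called (median 0.08). In the pigs of shared numbers 5 lipogenic genes, 1 of fatty acid oxidation, 3 of sterol efflux and 1 of cholesterol synthesis were called lower. With the title number as a block 3 of sterol efflux and 1 of cholesterol synthesis were called lower, and without the near-identical libraries 3 of lipogenesis and 3 of sterol efflux.

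Of 40 genes of amino acid breakdown and the urea cycle, 1 was called. TDO2, which opens the breakdown of tryptophan, had 236 to 287 CPM in MLE-BDL and 564 to 993 CPM in ENT-BDL, a fall of 1.39 (SE 0.13, adjusted p = 2.4e-11), without overlap. None of 22 genes of branched-chain amino acid breakdown was called (median 0.01). Of 21 clock genes BHLHE40, a repressor of the clock, was called, higher by 1.04 (SE 0.25, adjusted p = 0.0026), and it lost the call with the title number as a block (0.64) and without ENT-BDL replicates 4, 5 or 7 or MLE-BDL replicate 3 (0.90 to 1). CDKN1A, the cell cycle inhibitor p21, rose by 1.57 (SE 0.20, adjusted p = 4.5e-08; 46.4 to 70.6 against 13.4 to 27.2 CPM), and it was the only gene called of 30 in the cell cycle list, where the proliferation gene MKI67 had a log2 fold change of 0.04 (SE 0.18).

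Of 42 inflammatory and 41 matrix genes, 3 and 1 were called, where 3.18% of all genes tested were called. TIMP1, an inhibitor of matrix proteases, had a median of 47.2 CPM (18.9 to 135) against 10.3 CPM (7.33 to 64.3) and rose by 1.84 (SE 0.49, adjusted p = 0.0060), the only one called of 41 matrix genes (median 0.30); in the pigs of shared numbers none was called higher and 1 lower, with a median of 0.00, and without the near-identical libraries 1 higher and 1 lower. MMP7, a matrix protease of bile duct cells, had 29.1 to 59.9 CPM against 52 to 212 CPM and did not pass (−1.20, SE 0.57, adjusted p = 0.148), but it was called lower without those libraries (−1.04, adjusted p = 0.00465), in the pigs of shared numbers (−1.21) and in edgeR and DESeq2 on the compared groups alone (−1.21 and −1.20). COL1A1, the main fibrillar collagen, had a median of 1120 against 688 CPM, the highest values being 1830 and 1190, a log2 fold change of 0.70 (SE 0.36, adjusted p = 0.19), and COL3A1 of 0.42 (SE 0.22, adjusted p = 0.19). The summed CPM of 14 stellate cell markers was 1070 to 2490 in MLE-BDL and 510 to 1770 in ENT-BDL, and its part in these values was not tested. Of 42 inflammatory genes PTGS2, LCN2 and CXCL14 were called higher and none lower (median −0.12), LCN2 losing the call with the title number as a block (1.16 in place of 1.44) and CXCL14 without MLE-BDL replicate 3 (0.98 in place of 1.17). CXCL8, a neutrophil chemokine, had 8.49 to 20.5 CPM against 16.3 to 65.1 CPM and did not pass (−1.38, SE 0.57, adjusted p = 0.0892), but it was called lower in the same 4 alternatives as MMP7, at −1.54 to −1.34. Of the inflammatory list 3 were called higher and 1 lower without the near-identical libraries, and 2 higher and 2 lower in the pigs of shared numbers. SAA3, an acute-phase amyloid, fell by 2.74 (SE 0.69, adjusted p = 0.0033; 8.8 to 22.1 against 27.3 to 482 CPM), a call also lost with the block (−2.35). CNTFR, a receptor subunit for ciliary neurotrophic factor, was higher by 1.24 (SE 0.18, adjusted p = 1.3e-06), and these 2 were the only ones called of 24 acute-phase and IL-6 genes. Of the 24, 21 had a log2 fold change below 0, and the median was −0.30. None of 27 interferon response genes passed, with a median of 0.05, but with the title number as a block 5 were called higher and the median was 1.23, and in the pigs of shared numbers 1 was called higher and the median was 0.76.

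Marker lists of the other liver cells moved little beside the erythroid one. None of the hepatocyte (14), stellate cell (14), Kupffer cell (18), sinusoidal endothelial (13) or T and NK cell (13) markers was called. Of all genes tested 3.18% were called, and at that share lists this short would hold few calls. Among cholangiocyte markers CLDN7 alone was called, lower, among neutrophil markers FCN1, higher, and among B and plasma cell markers DERL3, higher, which is also in the ER list; without the near-identical libraries 1 B and plasma cell marker was called lower as well. Skeletal muscle markers were higher: CKM and TNNI2 of 3 tested were called, and the sum of 9 was 20.5 to 47.7 CPM in MLE-BDL against 11.8 to 28.1 CPM in ENT-BDL. Its part in other results was not tested.

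To place the ligated pigs beside sham-operated ones, the same diets were compared without ligation. In sham pigs 601 genes (3.71%) were called between MLE and ENT, and 257 genes were called under both surgeries, which is 49.9% of the list from ligated pigs and 42.8% of that from sham pigs; 254 of these had the same sign. Without the near-identical libraries 672 genes were called in sham pigs and 265 under both surgeries, 262 with the same sign. The comparisons share no pig by their labels, but each holds 1 of the near-identical libraries. HAMP fell in both, with log2 fold changes of −6.56 in ligated and −7.90 in sham pigs, as did CYP7A1 (−4.31 and −4.64), IGFBP1 (−3.76 and −3.87) and LEPR (−3.34 and −2.43), and TFRC rose by 1.79 in each. The interaction of diet with surgery did not pass for any of these 5 genes, with or without those libraries. ANKRD33 and TIMP1 had log2 fold changes of 0.45 and −0.16 in sham pigs, with interactions of 2.20 (SE 0.61, adjusted p = 0.15) and 2.0 (SE 0.70, adjusted p = 0.34) that did not pass either; without those libraries the sham value of TIMP1 was 0.45. The interferon list, with a median of 0.05 in ligated pigs, had one of −1.16 in sham pigs, where 5 of 27 genes were lower without a fold limit (10.4% of all genes were lower and 10.7% higher there, 21.1% in all), but with the title number as a block these medians were 1.23 and 0.23, with no gene lower in sham pigs. No gene of the list had an interaction that passed in either fit.

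**Figure D4:**
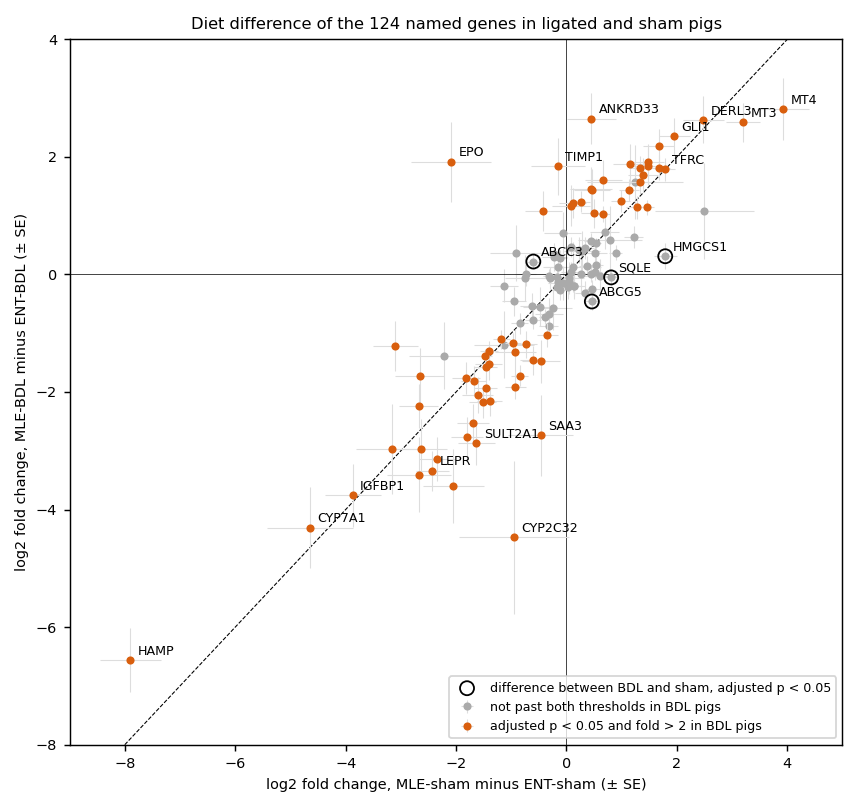
Log2 fold change of MLE over ENT in sham pigs (horizontal) and in ligated pigs (vertical) for the 124 genes named by the rule, with standard errors as bars; circled genes have an interaction with an adjusted p below 0.05. HAMP lies farthest to the lower left, at −7.90 in sham and −6.56 in ligated pigs, and HMGCS1 lies below the dashed line of equality, at 1.79 and 0.31.

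The effect of diet differed with surgery for 10 genes at an adjusted p below 0.05 (0.0617% of those tested), and 1466 had an unadjusted p below 0.05. HMGCS1, an early enzyme of cholesterol synthesis, had 651 to 1130 CPM in MLE-BDL and 498 to 1070 CPM in ENT-BDL, but 417 to 1280 CPM in MLE-sham against 105 to 549 CPM in ENT-sham. The diet difference was 0.31 (SE 0.22) after ligation and 1.79 (SE 0.21) after sham surgery, and the difference of these was −1.48 (SE 0.30, adjusted p = 0.042). SQLE, a later enzyme of that pathway, gave −0.05 and 0.81 (interaction −0.87, SE 0.19, adjusted p = 0.043). ABCG5, which exports sterols into bile, gave −0.46 and 0.46 (−0.92, SE 0.19, adjusted p = 0.042), and ABCC3, a basolateral exporter of conjugates, 0.22 and −0.60 (0.81, SE 0.17, adjusted p = 0.042). The differences themselves moved little as single pigs were left out (−1.53 to −1.41 for HMGCS1 and −0.96 to −0.89 for ABCG5), but the adjusted p rose to as much as 0.0992 for SQLE and 0.0761 for the other 3 genes. The count of 10 ranged from 0 to 18 as each pig was left out, was 0 without any one of 8 of the 18 pigs (MLE-BDL replicates 2 to 7 and ENT-BDL replicates 4 and 9) and 1 without MLE-BDL replicate 1, and it was 38 without the near-identical libraries, where HMGCS1 had an adjusted p of 0.00159, ABCG5 of 0.00687, ABCC3 of 0.0144 and SQLE of 0.0146. The interaction of MMP7 passed where these libraries were left out: the diet difference was then −1.04 in ligated and 1.12 in sham pigs (interaction −2.16, SE 0.38, adjusted p = 0.0046), against −1.20 and −1.13 (−0.07, SE 0.78, adjusted p = 0.99) with them. ENT-sham replicate 2 had 226 CPM of MMP7, and no other ENT-sham library had over 9.92 CPM.

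A second comparison set MLE-BDL beside SLE-BDL, in which both groups received PN and the lipid differed, and it shares the 8 MLE-BDL pigs with the first. Of all genes tested 147 (0.907%) passed without a fold limit and 60 with it, but 10 with the title number as a block, 9 in a fit of these groups alone and 27 without MLE-BDL replicate 5. Among 24 acute-phase and IL-6 genes 10 passed without a fold limit, a count not repeated with the block, and the list's median was −0.66. Of the 10 named genes among the 60, 3 kept the call with the block (CNTFR, APOA5 and ANGPTL4) and CNTFR alone did in the fit of these groups alone, while all 10 kept their direction in both fits. Of the genes that fell most against ENT-BDL, some did not pass here: HAMP (0.18), CYP7A1 (−1.44), IGFBP1 (−1.33), LEPR (−0.75) and G6PC (−0.73). For these 5 the differences between SLE-BDL and ENT-BDL were −6.74, −2.87, −2.43, −2.59 and −2.03. SULT2A1 was lower in MLE-BDL than in SLE-BDL (−1.82, SE 0.36, adjusted p = 0.0054), with 13.1 to 46 CPM against 33.5 to 242 CPM, but the call was lost with the block (−1.38, adjusted p = 0.21). APOA5 (−1.76, adjusted p = 0.0090) was also lower and kept its call with the block (adjusted p = 0.0398), while SLC25A47 (−1.53, adjusted p = 0.0054, and 0.0877 with the block) did not. CYP2C49 (−2.12, adjusted p = 0.020) had 0.0831 with the block and was no longer called without MLE-BDL replicates 5 or 7. METTL7B (−2.31, adjusted p = 0.040) had 0.0728 with the block and was called in only 2 of the 8 fits that left out an MLE-BDL pig, those without replicates 2 or 8.

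**Figure D5:**
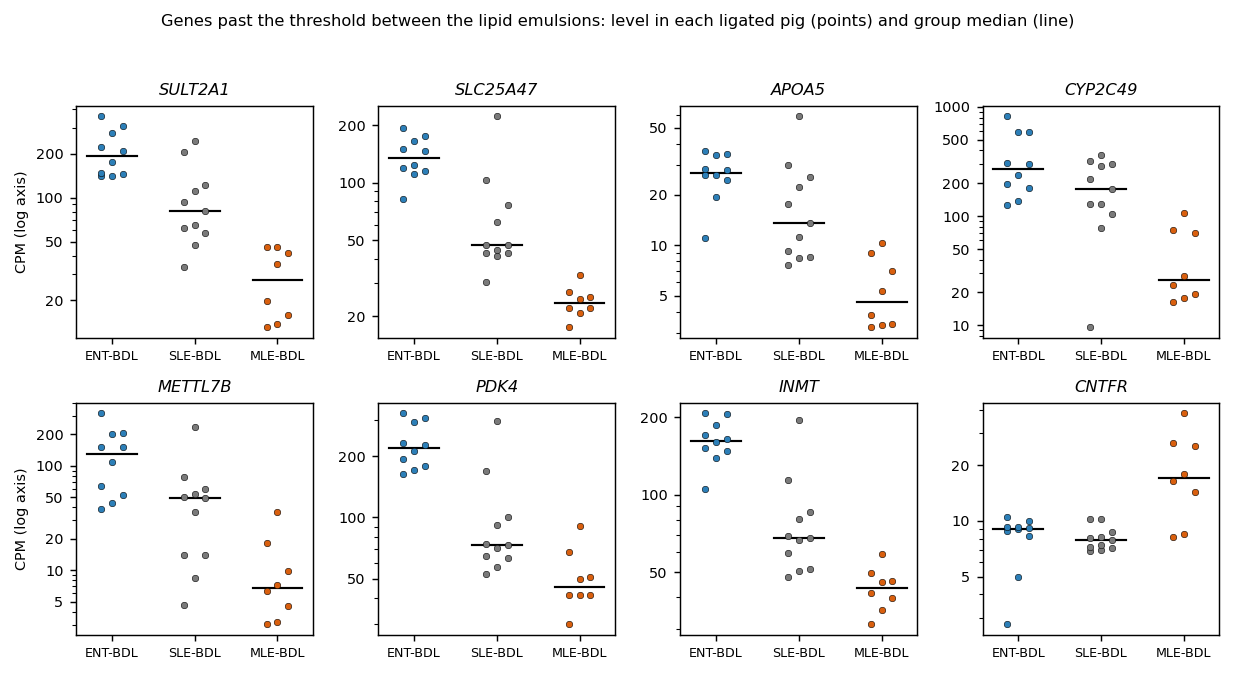
CPM on a log axis in each ligated pig of the 3 diets for 8 of the named genes that passed both against ENT-BDL and against SLE-BDL (SULT2A1, SLC25A47, APOA5, CYP2C49, METTL7B, PDK4, INMT and CNTFR), PDK4 (−0.97) and INMT (−0.89) against SLE-BDL by less than 2-fold; points are pigs and bars are medians. Of the 6 others CNTFR and APOA5 kept the call against SLE-BDL with the title number as a block. SULT2A1 falls from 140 to 359 CPM in ENT-BDL through 33.5 to 242 CPM in SLE-BDL to 13.1 to 46 CPM in MLE-BDL, and CNTFR is above the other 2 groups in most MLE-BDL pigs.

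CNTFR had the smallest adjusted p of the named genes against SLE-BDL. It had a median of 17.1 CPM (8.21 to 38.2) in MLE-BDL, 7.85 CPM (6.89 to 10.3) in SLE-BDL and 9.08 CPM (2.76 to 10.5) in ENT-BDL. It was higher than in SLE-BDL by 1.26 (SE 0.18, adjusted p = 1.66e-05; 1.12 and 0.0301 with the title number as a block, 1.25 and 0.0245 in the fit of these groups alone), while SLE-BDL and ENT-BDL differed by −0.02 (SE 0.17). EPO was lower in MLE-BDL than in SLE-BDL by 2.84 (SE 0.60, adjusted p = 0.0083), where its values reached 22.5 CPM, and MFSD2A, a carrier of omega-3 lysolipids, was at 0.708 to 3.29 CPM in MLE-BDL, at 0.289 to 172 CPM in SLE-BDL and at 0.0551 to 1.82 CPM in ENT-BDL (MLE-BDL against SLE-BDL −4.14, SE 0.80, adjusted p = 0.0047). Both calls were lost with the block, where EPO had −1.76 (adjusted p = 0.406) and MFSD2A −3.63 (adjusted p = 0.0838).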

How the data were processed

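Raw counts per gene of 60 pig liver samples, deposited by the authors, were used; per the submitters' processing notes and the methods of the study, reads of an unstranded poly-A library (NEBNext Ultra, paired ends) were aligned to Sscrofa11.1 with HISAT2 2.0.5, StringTie 1.3.3 was named, and featureCounts 1.5.0-p3 counted the reads. Because the library kept no strand, overlapping and antisense genes cannot be told apart. Pigs were grouped by the diet and surgery in the labels. The 24 features without a gene name (0.0084 to 0.041% of counts) were left out of library sizes and tests.

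Genes were filtered with filterByExpr over the 6 groups, scaled by TMM and tested with edgeR 4.0.16 (limma 3.58.1, R 4.3.3): glmQLFit with robust estimation over all 60 samples, 1 term per group, glmQLFTest per contrast, Benjamini-Hochberg adjustment over 16210 genes. A gene was called at an adjusted p below 0.05 and a fold change above 2. The standard error is the absolute log2 fold change over the square root of F. CPM are TMM-scaled, and log2 CPM used a prior count of 2. In 8 called genes all MLE-BDL pigs, and in 3 all ENT-BDL pigs, had 3 counts or fewer, and none of these is named. The script was tested on simulated data with known changes. Alternatives were DESeq2 1.42.0, RLE scaling, other filters, fits on the compared groups, the replicate and title numbers as blocks, and leaving out pigs. Figures used matplotlib 3.10.9.

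Named were the 10 largest rises and falls among the called (with a gene symbol, averaging 2 or more in log2 CPM over the 18 pigs), up to 3 called genes with the smallest p per list, and genes marked in the lists, 124 in all; cell type markers are named as members of their lists, and ATOH8, FTH1, CYP2C42, NR1I2 and VEGFA, list members outside this rule, were chosen after their values were seen. The pigs, lists and marked genes were chosen with earlier results of these data known. Some genes are not reported here. No sequences are shown.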

Additional observations from a re-analysis of the deposited data

Results flagged for a closer look

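In 18 of 248 sets of values (each of the 124 genes in MLE-BDL and in ENT-BDL), 1 pig lay far from the rest by Dixon's ratio, where chance gives about 1 in 20. ENT-BDL replicate 4 was lowest for FASN (295 CPM, next 815) and PER1 (28.9, next 54.8). MLE-BDL replicate 2 was lowest for the clock gene ARNTL (14.2 CPM, next 21.6) and highest for DBP (8.71, next 5.29) and CYP4V2 (60.7, next 50.7). MLE-BDL replicate 8 was lowest for GSTA1 (37 CPM, next 140), SLC51B (12.1, next 25.8) and NR0B2 (17.8, next 22.8). MLE-BDL replicate 1 was lowest for SAA3 (8.8 CPM, next 14.9) and FADS2 (254, next 309), and MLE-BDL replicate 6 was highest for LEPR (25.7 CPM, next 10.2).

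Among the other ENT-BDL pigs, replicate 10 was highest for ADH4 (56.4 CPM, next 17.2) and replicate 2 for CXCL14 (29.9, next 13.9). The lowest values apart from the rest were TAT in replicate 1 (402 CPM, next 571), CTGF in replicate 5 (18.2, next 30.6), MT4 in replicate 6 (0, next 0.215), IGFBP2 in replicate 7 (1030, next 1540) and ARNTL in replicate 8 (13.9, next 18.8).

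For 4 of the 124 genes the effect of MLE against ENT differed between ligated and sham pigs by the interaction in edgeR: ABCC3 (0.81), ABCG5 (−0.92), HMGCS1 (−1.48) and SQLE (−0.87), each on the log2 scale with the ligated pigs minus the sham pigs. Without the near-identical libraries MMP7 (−2.16) passed as well, and with the title number as a block SLC40A1 (−0.66) did.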

How the results depend on the processing

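The 515 called genes, 198 higher and 317 lower, stayed within 1.5 times under RLE scaling (517), without a filter (617), in DESeq2 on all pigs (624) or on the compared groups (697), in edgeR on the compared groups (448), with the title number as a block (499) and without the near-identical libraries (548). They moved to 226 (78 higher, 148 lower) with at least 10 counts in every pig, which leaves fewer genes, to 284 (112 and 172) in the 8 pigs of shared title numbers with the number as a block, which changes both the pigs and the model, and to 2722 (1382 and 1340) without the fold limit. Leaving out 1 pig gave 464 to 548, of which 438 to 482 were among the 515. Of the 515, 513 were also called under RLE, 511 by DESeq2 on all pigs, 354 with the title number as a block and 198 in the pigs of shared numbers.

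The 10 genes with an interaction became 17 with at least 10 counts in every pig, 47 and 109 in DESeq2 on all pigs and on the compared groups, 37 in edgeR on the compared groups, 4 with a fold limit, 76 with the title number as a block, 38 without the near-identical libraries and 0 to 18 without 1 pig. The 60 genes called between MLE-BDL and SLE-BDL became 39, 114, 105, 9, 147 (no fold limit) and 10 in the first 6 of these, and 27 to 65 without 1 pig, the lowest being 27 without MLE-BDL replicate 5, 30 without replicate 7 and 39 without replicate 4. Apart from the changes whose construction is given, the cause was not tested.

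Replicate numbers did not pair the pigs: over 8 same-numbered pairs the correlation of deviations was −0.202 to 0.068 (median −0.095), and none correlated best with its own number. With the replicate block 492 genes were called (207 higher, 285 lower), 15 had an interaction and 56 differed between MLE-BDL and SLE-BDL, and ADH4, CYP3A29 and SULT1E1 lost their calls. Pigs with the same title number correlated at 0.197 on average (5 pairs, against −0.013 for 75 others).

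Named genes that changed sign were never called. The log2 fold change became 0.16 for IGF1, −0.04 for LGALS3 and 0.01 for SOCS3 with the replicate block, and −0.1 for APOA4, 0.26 for SOCS3 and 0.2 for SPP1 with the title number as a block. In the pigs of shared numbers it was −0.12 for ABCG8 and for CCL2, −0.04 for COL1A1 and for COL3A1, 0.08 for SOCS3 and 0.33 for SPP1. It was −0.01 for PSAT1 without a filter and, without the near-identical libraries, −0.03 for MKI67, −0.01 for PSAT1 and 0.01 for SMAD7. With 1 pig left out it ranged from −0.28 to 0.02 for FASN, −0.19 to 0.08 for SPP1, −0.18 to 0.17 for SOCS3, −0.03 to 0.12 for ABCG8, −0.12 to 0.02 for SMAD7, −0.15 to 0.03 for SLCO1B3, −0.04 to 0.06 for PSAT1, −0.06 to 0.11 for MKI67, −0.05 to 0.19 for CCL2, −0.14 to 0.05 for IGFALS, −0.02 to 0.22 for LGALS3 and −0.22 to 0.07 for IGF1. EPO in both groups and MT4 in ENT-BDL were counted at low levels, and the part of depth in their values was not tested.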
